A study of Macaca mulatta with 60 samples.

Results

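The transcripts described here are 288 of the 26149 on a rhesus macaque array whose level was lower late than early in fetal life in several striated muscle tissues at once. The members were chosen by measured levels: a transcript was a member if the mean of the 3 late gestation (LG) controls lay at least 1 below the mean of the 3 early gestation (EG) controls on the log2 scale, which is a 2-fold fall, in at least 3 tissues out of right ventricle (RV), left atrium (LA), right atrium (RA) and biceps femoris muscle (BFM), and at least 1 above it in none. Of 292 transcripts that met these values, 4 were left out by design, which gave the 288. These 4 were 3 small RNAs described by the study and the metalloprotease Adam12. Small RNAs on the array that the study did not describe could not be recognised, so some may be among the members. The 4 tissues of the rule were therefore used up by the choice, and the arrays that it did not use were left for testing, namely all left ventricle (LV) arrays and all arrays of fetuses exposed to bisphenol A (BPA), a monomer of polycarbonate plastics with hormone-like activity.

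The samples were numbered 1 to 12 in each of the 5 tissues, with 1 array for each number. Equal numbers were taken to mark the same female rhesus fetus. The sources do not state this, so the count of 12 fetuses is an inference. The dams ate fruit carrying vehicle (ethanol) or 400 µg/kg body weight of deuterated BPA daily, over days 50 to 100 of gestation (EG, ± 2 days) or from day 100 (± 2 days) to term (LG). Fetuses 1 to 3 were EG controls, 4 to 6 were EG BPA exposed, 7 to 9 were LG controls and 10 to 12 were LG BPA exposed. EG fetuses were obtained by caesarian section and LG fetuses at necropsy after vaginal delivery. Gestational age, the mode of delivery and the change at birth therefore cannot be told apart. If equal numbers mark the same animal, the LV control arrays came from the control fetuses that chose the members in the other tissues. Fetuses 4 to 6 and 10 to 12 had no part in the choice. In such bulk tissue, fewer cells of a type and less RNA per cell cannot be told apart.

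Early fetal heart and skeletal muscle grow by cell division, and division slows as the cells mature into contracting muscle. Dividing cells use a set of proteins for only part of their cycle, among them the phosphatase CDC25C, which switches on the kinase that drives entry into mitosis, CENPE, a motor that moves chromosomes at the kinetochore, and citron kinase (CIT), which acts in the last separation of daughter cells. Other genes act in embryonic patterning or growth, such as CRABP1, which binds retinoic acid in the cytoplasm.

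A name could be given to few of the members, since names came only from descriptions that the study printed for transcripts it called in a BPA comparison. Of the 288, 9 had such a description, 3 of them only as protein coding with no name, and 279 had none. The 6 named members were CDC25C, CENPE, CIT, CRABP1, LRRC7 (leucine-rich repeat-containing protein 7, a scaffold protein of nerve cell synapses) and an IFIT1-like protein, a relative of the interferon-induced IFIT1. CENPE, CDC25C, CIT and IFIT1-like had been described for LV LG, CRABP1 for RV LG and LRRC7 for RA EG, so the BPA effect of each in that tissue and window is not independent evidence. The same arrays enter the difference between LG and EG of these transcripts in that tissue, for controls and BPA exposed fetuses alike, and the mean over 5 tissues, so those values too depend on how the transcripts came to be named. Of the 44 genes of a list of mitosis and cell division, 4 could be found by description. They were CDC25C, CENPE, CIT and the spindle checkpoint kinase TTK, and 3 of these 4 were members. The list was drawn up with earlier results of these data known, and all 4 had been described for LV LG. The count therefore does not test a theme. Of 283 described transcripts that were not small RNAs, 9 were members. TTK missed the rule with control differences of −1.37 in RV, −0.85 in RA, −0.77 in LA and −0.52 in BFM. None of the 44 genes of DNA replication and S phase and none of the 14 histones on further lists had a description. Of 23 fetal growth and oncofetal genes SALL4 was described, and of 32 matrix genes COL19A1, and neither was a member.

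In the control arrays that chose them, the members had a median difference between LG and EG of −1.64 in BFM, −1.54 in RV, −1.42 in RA and −1.38 in LA, against −0.01, 0.03, −0.01 and −0.01 over all transcripts. These values describe the choice and were not tested. The fall reached 1 in all 4 tissues for 139 members and in 3 for the other 149. The tissue that missed was RV for 45 members, RA for 40, BFM for 36 and LA for 28. Members that missed in a tissue still had negative medians there, of −0.51 in RV, −0.72 in RA, −0.57 in BFM and −0.78 in LA.

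The threshold cut through a continuum. The difference that decided membership (the third lowest of the 4) was −1.0004 for the member nearest to the threshold and −0.9997 for the nearest transcript outside it. There were 70 members within 0.1 inside the threshold and 89 transcripts within 0.1 outside it. In BPA exposed fetuses the mean fall over 5 tissues had a median of −0.98 for those just inside and −0.80 for those just outside. Membership also rested on single control fetuses: it gave 246 members without fetus 3 and 344 without fetus 2, and 158 of the 288 stayed members whichever of the 6 control fetuses was left out.

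In EG the members stood above the middle of all transcripts, and in LG a little below it. The median member lay between percentiles 60.8 and 64.8 of its tissue in EG groups and between percentiles 38.8 and 48.3 in LG groups. In LV, which the rule did not use, the median level of the members was 7.72, 7.39 and 7.73 in EG controls and 7.70, 7.93 and 7.76 in EG BPA exposed fetuses. The LG values in LV were 6.27, 6.02 and 6.66 in controls and 6.08, 6.07 and 6.15 after BPA. Every EG fetus thus lay above every LG fetus in LV. In BFM the median member level was 8.51 to 8.62 in EG BPA exposed fetuses and 6.55 to 7.06 in LG BPA exposed fetuses. The median over all transcripts hardly differed between arrays of a tissue, from 6.55 to 6.66 in LV and from 7.61 to 7.74 in BFM.

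**Figure D1:**
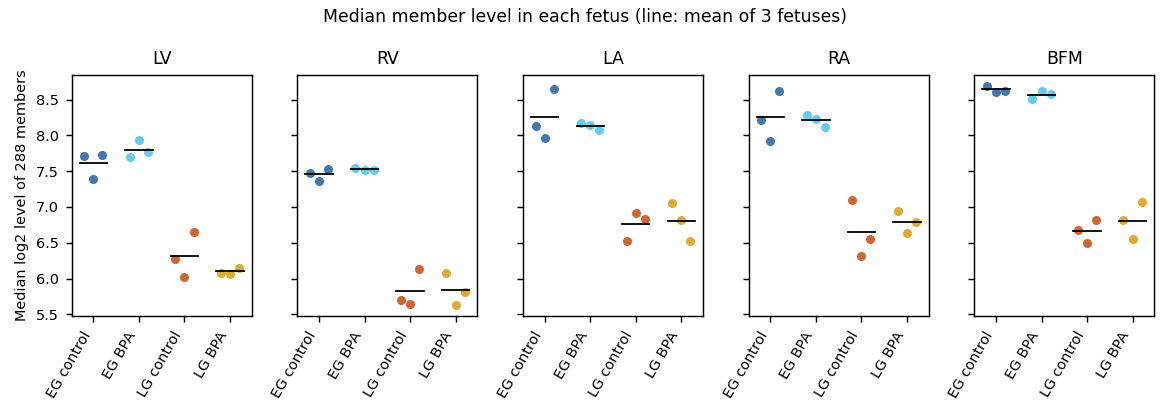
Median log2 level of the 288 members in each of 12 fetuses (points), by tissue and group, with the mean of 3 fetuses as a line. The LG fetuses lie below the EG fetuses in each tissue, in LV at 6.02 to 6.66 against 7.39 to 7.93. The control points of RV, LA, RA and BFM chose the members.

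The fall was seen again in LV controls. The median member was lower in LG than in EG by −1.20 on the log2 scale, against −0.01 over all 26149 transcripts, and 263 of the 288 members had a difference below 0, against 50.7% of all transcripts. At the criteria of the study's methods, which are a log2 difference of at least 1 with an unadjusted p of at most 0.01 (limma), 93 members (32.3%) fell, where 1.36% of all transcripts did. No member passed a Benjamini-Hochberg adjusted p of 0.05 (limma), and 0% of all transcripts passed it as lower, while 156 members (54.2%) were lower at an unadjusted p of 0.05 in limma, against 5.39% of all transcripts. The share at the methods' criteria was 20.5% without fetus 3. The spread behind this comparison was wide, as the median SD of the members was 0.85 in LG controls in LV, against 0.53 over all transcripts.

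The fall was also seen in fetuses that had no part in the choice. In BPA exposed fetuses the median member differed between LG and EG by −1.52 in LV and −1.41 in RV, by −1.15 and −1.33 in LA and RA, and by −1.53 in BFM. At the methods' criteria 219 members fell in BFM (76%, against 3.99% of all transcripts). In the ventricles 134 fell in LV (46.5%, against 1.8%) and 169 in RV (58.7%, against 2.1%). In the atria 150 fell in LA (52.1%, against 1.33%) and 154 in RA (53.5%, against 1.17%). At an adjusted p of 0.05 (limma), 239 members were lower in BFM (7.55% of all transcripts), 48 in LV (0.203%), 107 in RV (0.6%), 58 in LA (0.348%) and 84 in RA (0.49%). In LV the 48 members were among 53 transcripts that were lower at that adjusted p.

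The 5 tissues under each number of a BPA exposed fetus were averaged, with the number taken as 1 animal and as the replicate. The members' median fall was then −1.45, against 0.02 over all transcripts. Of the 288, 213 fell at the methods' criteria (74%, against 1.55%) and 230 at an adjusted p of 0.05 (3.52% of all transcripts; limma). The mean over 5 tissues was −2 or lower for 61 members, above −0.5 for 19 and above 0 for 4, over a range from −3.54 to 0.15. In these fetuses 246 members were lower in LG in all 5 tissues, 28 in 4, 10 in 3 and 4 in 2. Over all transcripts 43.4% (RV) to 51.3% (LA) were lower in a single tissue, and the share lower in all 5 is not given here. By the methods' criteria 69 members (24%) fell in all 5 tissues, as did 0.287% of all transcripts. In at least 1 of the 5 tissues 260 members (90.3%) fell, against 6.82% of all transcripts, and 28 fell in none. With LV controls added, 265 members (92%) were called in at least 1 comparison, against 7.54% of all transcripts, and 23 in none.

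**Figure D2:**
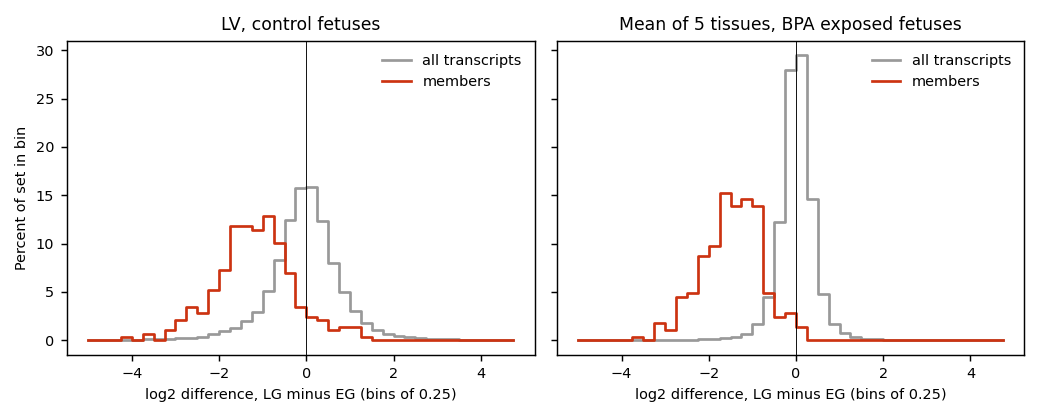
Distribution of the log2 difference between LG and EG (horizontal axis, bins of 0.25) for the 288 members and for all 26149 transcripts, as percent of each set, in LV controls and in the mean of 5 tissues of BPA exposed fetuses. The members centre on −1.20 and −1.45, all transcripts on −0.01 and 0.02.

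Members with a large fall in the control arrays of the rule had a large fall in the held-out arrays as well. The 72 members with the largest mean fall in RV, LA, RA and BFM controls (median −2.22) had a median of −1.67 in LV controls and −2.23 in the mean of BPA exposed fetuses. For the 72 with the smallest fall (median −1.10) these medians were −0.75 and −0.88. Across the 288 members, which are not independent, Spearman's rho of the rule's mean fall was 0.44 with LV controls, 0.53 with LV BPA exposed fetuses and 0.75 with the mean of BPA exposed fetuses. Control and BPA arrays of a heart chamber share a slide, and LV controls were taken to share their fetuses with the rule.

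CENPE met the methods' criteria for a fall in RV, LA, RA and BFM of the BPA exposed fetuses. It also met them in LV of both groups, where the LG arrays are those for which it was named. In LV its level was 7.03, 6.86 and 6.98 in EG controls, 7.29, 7.77 and 7.14 in EG BPA exposed fetuses, 5.02, 4.91 and 5.68 in LG controls and 3.41, 4.17 and 3.09 in LG BPA exposed fetuses. The EG and LG fetuses did not overlap, and the LG BPA exposed fetuses lay below the LG controls. The fall in LV was −1.75 (SE 0.33, adjusted p = 0.132, limma) in controls and −3.85 (SE 0.33) in BPA exposed fetuses. Over the 5 tissues of BPA exposed fetuses, LV included, it was −2.19 (SE 0.12).

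CDC25C fell in the same tissues of the BPA exposed fetuses. Its level in RV was 6.55, 6.34 and 5.87 in EG and 4.67, 4.47 and 4.68 in LG BPA exposed fetuses, and in LA it was 6.64, 6.66 and 6.53 against 5.40, 5.00 and 4.46. No LG fetus reached the EG range in either chamber. The mean fall over 5 tissues, LV included, was −1.88 (SE 0.14), with a call by the methods' criteria in all 5 tissues. As for CENPE, the LV LG arrays are those for which CDC25C was named. LV controls differed less, with 6.02, 6.61 and 6.17 in EG and 5.15, 4.78 and 6.46 in LG. LG fetus 9 lay within the EG range there, and the difference of −0.80 (SE 0.40, adjusted p = 0.477, limma) met the methods' criteria only without that fetus, at −1.30.

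CIT fell in LA and BFM of BPA exposed fetuses by the methods' criteria, and its values in their ventricles overlapped between the windows. In LA its level was 8.29, 8.37 and 8.09 in EG and 7.04, 6.45 and 5.17 in LG BPA exposed fetuses, a fall of −2.03 (SE 0.44, adjusted p = 0.0675, limma). In BFM it was 8.46, 8.60 and 8.57 against 6.54, 6.16 and 7.05, a fall of −1.96 (SE 0.29, adjusted p = 0.000865). In RA it was 8.40, 8.08 and 8.41 against 7.95, 5.65 and 6.63, a difference of −1.56 (SE 0.54, adjusted p = 0.305) that missed the methods' criteria although the windows did not overlap. In LV it was 10.46, 10.28 and 9.30 against 10.24, 9.79 and 9.93, a difference of −0.03 (SE 0.39). LV controls had 10.15, 9.51 and 9.41 in EG and 7.87, 8.53 and 8.99 in LG, a difference of −1.23 (SE 0.39, adjusted p = 0.295) whose unadjusted p just missed the methods' threshold.

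The mean difference of CIT over 5 tissues of BPA exposed fetuses was −1.22 (SE 0.31, adjusted p = 0.0595, limma). It met the methods' criteria with all fetuses and missed them without fetus 4, 5, 11 or 12, at values from −0.90 to −1.22. TTK, which was no member, had LV levels of 5.90, 5.82 and 5.24 in EG and 3.36, 2.91 and 1.44 in LG BPA exposed fetuses. TTK, like CENPE, CDC25C and CIT, had been described for LV LG.

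CRABP1 was high in EG ventricles and skeletal muscle and varied among LG fetuses. In BFM its level was 10.81, 9.99 and 10.31 in EG and 7.12, 6.72 and 9.48 in LG BPA exposed fetuses, a fall of −2.60 (SE 0.73, adjusted p = 0.0321, limma). In LV it was 10.29, 11.19 and 9.27 in EG and 8.96, 6.28 and 4.47 in LG controls, a difference of −3.68 (SE 1.21, adjusted p = 0.314) that missed the methods' criteria and met them without fetus 7. LG values in LV controls all lay below the EG values but ranged over more than 4 log2 units. In LV of BPA exposed fetuses the windows overlapped, at 9.04 to 12.25 in EG and 6.44 to 9.39 in LG, a difference of −2.48. In RA, where CRABP1 did not meet the rule, fetus 7 stood at 9.23 and fetus 10 at 9.18, above all 6 EG fetuses (6.08 to 7.20), and the other 4 LG fetuses lay between 4.35 and 5.13.

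The mean difference of CRABP1 over 5 tissues of BPA exposed fetuses was −1.65 (SE 0.45, adjusted p = 0.0775, limma). It missed the methods' criteria without fetus 4, 6, 11 or 12. The BFM fall missed them without fetus 4, 6, 10 or 11. CRABP1 left the members when control fetus 3 or 8 was left out of the rule.

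LRRC7 was high and even in EG ventricles. In LV its level was 10.30, 10.52 and 10.35 in EG controls and 10.29, 10.19 and 10.58 in EG BPA exposed fetuses. LG controls had 8.48, 7.41 and 9.01 and LG BPA exposed fetuses 8.43, 10.00 and 7.77, all below the EG fetuses. The fall in LV controls was −2.09 (SE 0.55, adjusted p = 0.235, limma), and it missed the methods' criteria without fetus 2 or 8. In BPA exposed fetuses the mean over 5 tissues was −1.39 (SE 0.35, adjusted p = 0.0577), a call that was lost without fetus 5, 6, 10 or 12. In the atria of BPA exposed fetuses the windows overlapped, and no fall of LRRC7 passed. LRRC7 was named for its difference between BPA exposed and control fetuses in RA EG, where its mean was 6.40 against 7.95, so its small RA difference in BPA exposed fetuses depends on that choice. In LA its level was 6.48, 7.68 and 8.54 in EG against 6.00, 8.16 and 6.50 in LG, a difference of −0.68 (adjusted p = 0.791, limma). In RA it was 5.69, 6.30 and 7.21 against 5.49, 5.72 and 5.23, a difference of −0.92 (adjusted p = 0.545, limma).

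IFIT1-like was lower in LG than in EG in LV controls, and in BPA exposed fetuses its windows overlapped in each tissue. It was named for its difference between BPA exposed and control fetuses in LV LG, with means of 8.11 and 6.08, so its LV differences in both groups depend on that choice. In LV its level was 8.13, 7.34 and 8.82 in EG controls and 5.53, 6.83 and 5.89 in LG controls, a difference of −2.01 (SE 0.59, adjusted p = 0.279, limma) that met the methods' criteria with all fetuses and missed them without fetus 1, 3, 7 or 9. BPA exposed fetuses had 7.57, 6.80 and 8.59 in EG and 9.04, 7.67 and 7.63 in LG, and the windows overlapped. The mean over their 5 tissues was 0.15 (SE 0.62, adjusted p = 0.918, limma). Its place among the members depended on control fetus 3, which had 11.25 in RA against 5.20 and 5.42 in the other EG controls. Without fetus 3 its control difference was −0.42 in LA and 0.42 in RA, and it was no longer a member.

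**Figure D3:**
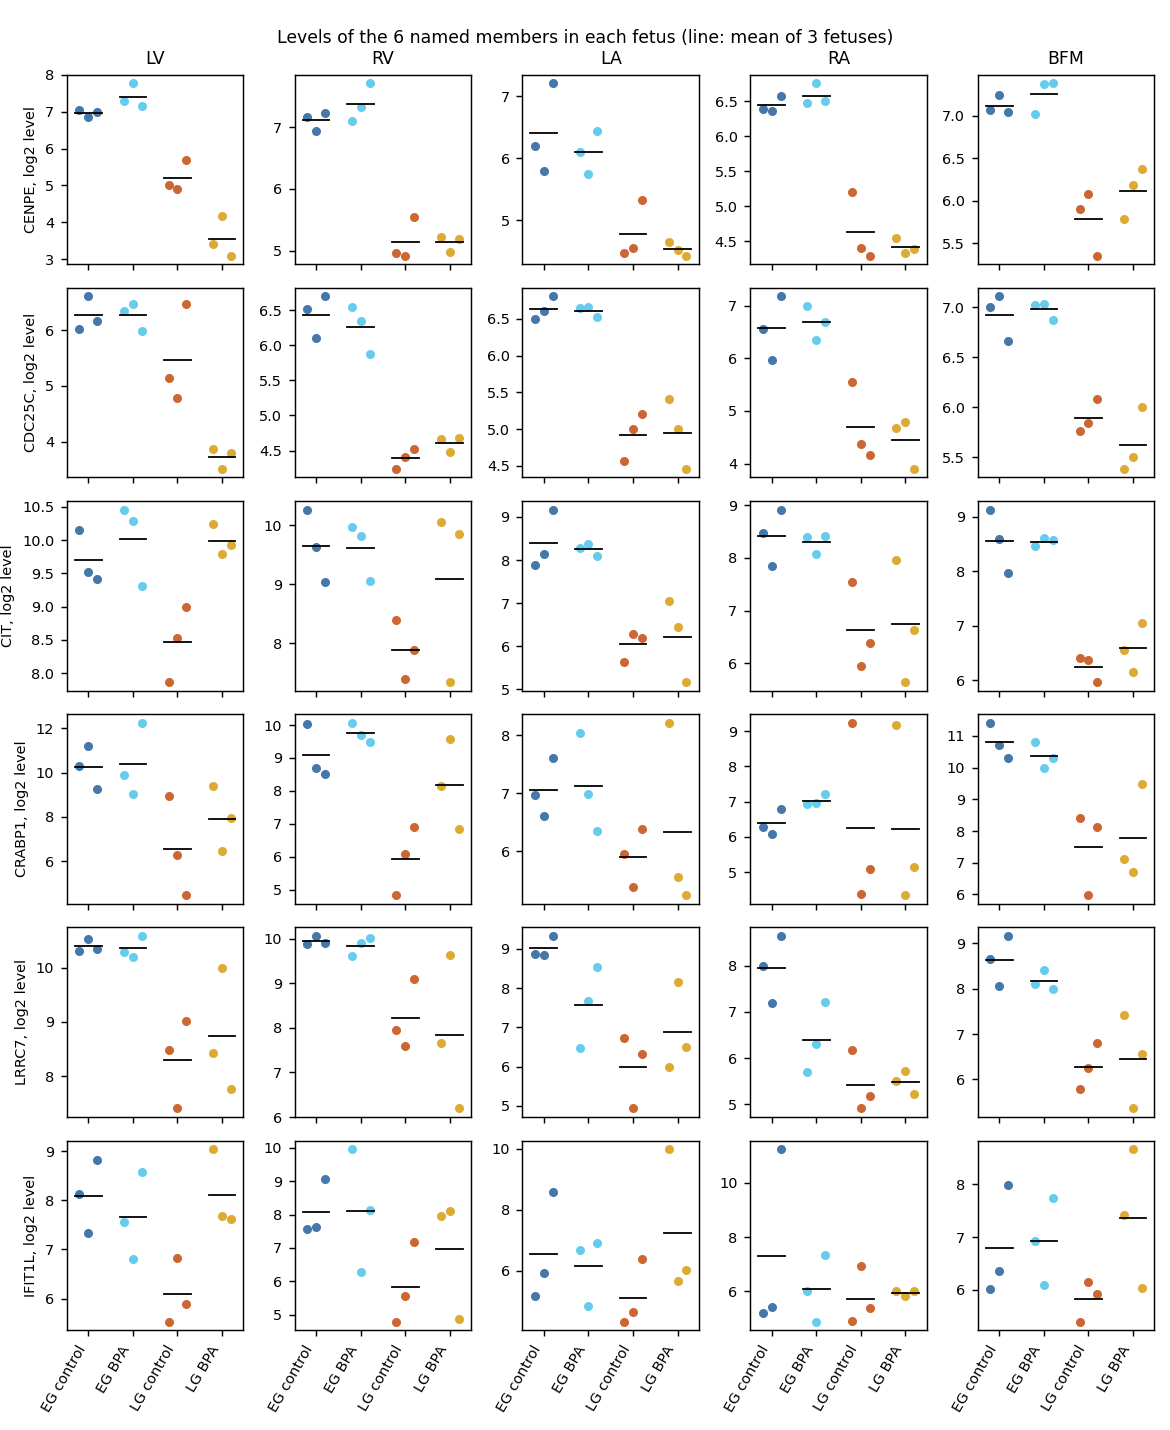
Log2 level (vertical axes, scaled separately) of the 6 named members in each fetus (points) by tissue and group, with the mean of 3 fetuses as a line. CENPE and CDC25C lie lower in LG than in EG in each tissue of BPA exposed fetuses, whereas IFIT1-like (IFIT1L) overlaps in each, with 11.25 in fetus 3 in RA.

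The members with the largest mean fall in the rule's tissues had no name, and whether they code for protein was not known. ENSMMUT00000007585 had LV levels of 10.62, 10.37 and 10.30 in EG controls, 7.73, 7.58 and 9.43 in LG controls, 10.61, 10.88 and 10.54 in EG BPA exposed fetuses and 7.34, 6.91 and 7.78 in LG BPA exposed fetuses. Its EG values lay within 0.6 of each other in LV while LG values were spread more widely and all lower. The fall was −2.19 (SE 0.45, adjusted p = 0.157, limma) in LV controls and −3.54 (SE 0.21, adjusted p = 0.000561) over 5 tissues of BPA exposed fetuses, the lowest mean of all members. ENSMMUT00000036569 had 13.20, 12.98 and 13.04 in EG and 8.96, 6.88 and 9.03 in LG BPA exposed fetuses in BFM, a fall of −4.78 (SE 0.48, adjusted p = 8.1e-05). Its LV controls overlapped, with 3.75, 5.41 and 5.63 in EG and 6.16, 4.65 and 2.99 in LG, a difference of −0.33. In LV of BPA exposed fetuses the windows did not overlap, with 6.10, 5.78 and 6.44 in EG and −0.50, 3.98 and 2.52 in LG. The difference was −4.11 (SE 1.10, adjusted p = 0.195, limma). The −0.50, of fetus 10, lay near the lowest value of its array, −1.15, and below the floor of 0.63 tried as an alternative. The size of this difference is therefore uncertain.

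Skeletal muscle and heart were compared in BPA exposed fetuses by the fall in BFM minus the mean fall in the 4 heart chambers. Ventricular cDNA was unamplified and atrial cDNA amplified, the preparation of BFM is not given, and each tissue was normalized alone. Tissue and preparation therefore cannot be told apart in this comparison. At an adjusted p of 0.05 (limma), 21 members (7.29%) fell further in BFM, where 1.85% of all transcripts had a difference in that direction. In the other direction 8 members (2.78%) fell further in the heart, a share near the 2.21% of all transcripts. At the methods' criteria these counts were 38 (2.46% of all transcripts) and 17 (2.75%). The 38 are 13.2% of the members and the 17 are 5.9%. Over all members the median difference was −0.13, against −0.04 over all transcripts. The rule lets a member miss in 1 tissue, so a larger fall in BFM or in the heart can come with the choice. Of the 21 members, 5 met the threshold in all 4 of the rule's tissues, and of the 8, 1 did. The shares over all transcripts carry no such choice.

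The 21 members with the larger fall in BFM had a median fall of −3.56 there and −0.81 in the heart. Their median level in EG BPA exposed BFM was 11.2, where the median over all members was 8.60. The differences ranged from −5.21 to −1.39, and none of the 21 had a gene name. In the controls, which chose them and are given as a description, the 21 had medians of −3.63 in BFM and −0.96 in the heart.

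CENPE was among the 8 members with the larger fall in the heart, whose median was −2.01 there and −0.58 in BFM. Its BFM level was 7.02, 7.38 and 7.38 in EG and 5.79, 6.19 and 6.37 in LG BPA exposed fetuses, a fall of −1.15 (SE 0.21, adjusted p = 0.00358, limma) that missed the methods' threshold on size without fetus 10, at −0.98. The fall of CENPE in BFM minus that in the heart was 1.31 (SE 0.28, adjusted p = 0.00589). LV, the chamber and treatment for which CENPE had been described, entered this heart mean with the largest of the chambers' falls. It was −3.85, against −2.25 in RV, −2.16 in RA and −1.56 in LA. LV values ran on a wider scale, as the lowest value of an LV array was −1.20 to 0.63, against 3.12 or more in other chambers. Without LV, an alternative chosen after seeing the data, the difference was 0.84 (SE 0.24, adjusted p = 0.0477, limma), under the methods' threshold on size. For CDC25C the corresponding difference was 0.67 (SE 0.29, adjusted p = 0.24). Counts at the methods' criteria in this comparison depended on the EG fetuses, as the share of members called was 19.1% in all and 12.5%, 11.5% and 11.8% without fetus 4, 5 and 6.

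**Figure D4:**
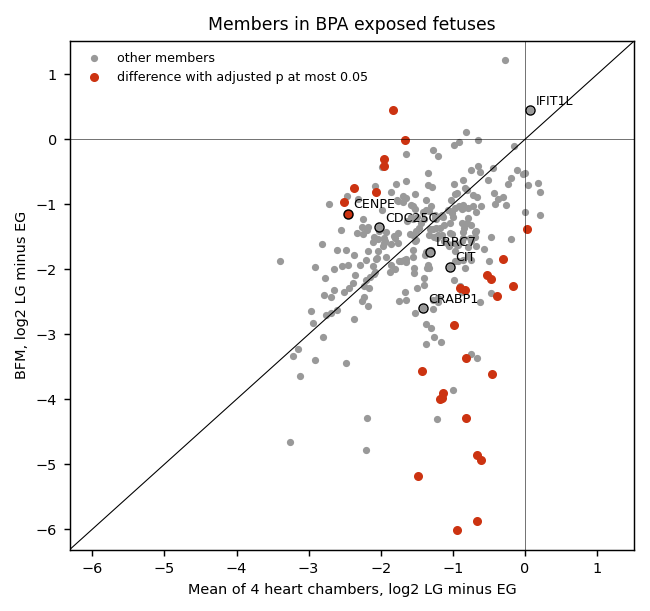
Log2 difference between LG and EG in BPA exposed fetuses for each of 288 members, as the mean of 4 heart chambers (horizontal) and in BFM (vertical), with the line of equal values and the named members ringed. Red points (29 members) differed at an adjusted p of at most 0.05, 21 of them lower in BFM and 8, with CENPE among them, lower in the heart.

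Whether BPA altered the members could be tested in LV. In EG no member met the methods' criteria for BPA against control, either as lower (0.52% of all transcripts) or as higher (0.214%), and at an unadjusted p of 0.05 in limma 1 member was lower (0.347%, against 2.64% of all transcripts) and 2 were higher (0.694%, against 1.46%). The median BPA effect over the members in EG was 0.20, with 224 of 288 above 0, against a median of 0.05 over all transcripts. The median SE of a single member was 0.50. Effects of single members ranged from −1.46 to 2.08. Without fetus 4, 0.347% of the members were called.

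In LG, 6 members were lower (0.394% of all transcripts) and 2 higher (0.436%) after BPA in LV by the methods' criteria. CENPE (−1.65, SE 0.33, adjusted p = 0.872, limma) and CDC25C (−1.74, SE 0.40, adjusted p = 0.909) were among the 6, with 4 members that have no description. CIT (1.52, SE 0.39, adjusted p = 0.977) and IFIT1-like (2.03, SE 0.59, adjusted p = 0.977) were the 2 that were higher. All of these 4 named members had been described in the study for this same comparison. No member passed an adjusted p of 0.05 (limma), and 0.00382% of all transcripts did. At an unadjusted p of 0.05 in limma, 33 members (11.5%) were lower, against 2.03% of all transcripts, and 10 (3.47%) were higher, against 2.31%.

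The median LG effect of BPA in LV over the members was −0.21, with 185 of 288 below 0, against 0.02 over all transcripts. Single effects ranged from −3.50 to 4.10. The number of members called turned on single fetuses. The share was 2.78% with all fetuses, 11.1% without control fetus 7, 5.56% without BPA exposed fetus 11 and 1.74% without control fetus 9. Shares over all transcripts without these fetuses are not given here, so whether the shifts are particular to the members is not known. CIT was no longer called without fetus 7 or 10, and IFIT1-like was not called without fetus 7, 9 or 10.

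The fall in LV from EG to LG was larger after BPA for 4 members (0.382% of all transcripts) and smaller for 0 (0.673%) at the methods' criteria. No member and 0% of all transcripts passed an adjusted p of 0.05 (limma), and the unadjusted p was at most 0.05 in limma for 21 members with a larger fall (7.29%, against 2.05% of all transcripts) and 4 with a smaller fall (1.39%, against 3.2%). CENPE, described by the study for LV LG and so no independent evidence here, was 1 of the 4, with a fall in BPA exposed fetuses minus that in controls of −2.09 (SE 0.47, adjusted p = 0.835, limma). For CDC25C this was −1.74 (SE 0.56), for CIT 1.20 (SE 0.55) and for IFIT1-like 2.47 (SE 0.84), each with an adjusted p of 0.885 in limma, and none met the methods' criteria. CDC25C met them without fetus 8 and IFIT1-like without fetus 2, 6 or 8. Over the members the median difference was −0.47, with 204 of 288 below 0, against −0.04 over all transcripts, and the median SE of a single member was 0.71. In either direction the share called was 1.39% with all fetuses, near the 1.06% of all transcripts. For the runs with a fetus left out, the share over all transcripts is not given here. The share of members was 0.694% without fetus 3, 4 or 10, 4.51% without fetus 7, 3.47% without 8, 2.43% without 11 and 2.08% without 12.

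**Figure D5:**
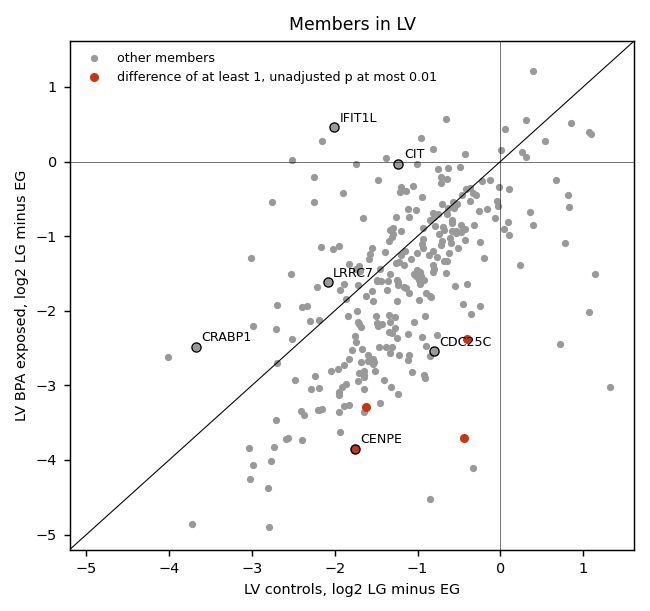
Log2 difference between LG and EG in LV for each of 288 members, in controls (horizontal) and in BPA exposed fetuses (vertical), with the line of equal values and the named members ringed. Red points are the 4 members, CENPE among them, whose falls differed by at least 1 with an unadjusted p of at most 0.01, and 204 of 288 members lie below the line.

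In RV, LA, RA and BFM, BPA against control rests on the control arrays that chose the members and is given as values without a test. The median BPA effect over the members lay between −0.09 (LA) and 0.01 (RV and RA) in EG. In LG it was 0.15 in RA, 0.10 in BFM and 0.06 in RV and LA. The mean fall over the rule's 4 tissues had a median of −1.51 in controls and −1.39 in BPA exposed fetuses, and it was smaller after BPA for 186 of 288 members.

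Most lists of cell type markers could be checked for few genes, as only described transcripts can be matched. Of 10 erythroid markers, ALAS2 and KLF1 were described, and neither was a member. ALAS2, the erythroid enzyme of haem synthesis, was at 12.33 in RA of fetus 3, against 8.24 and 7.95 in the other EG controls, where IFIT1-like was also highest. The difference of ALAS2 between LG and EG controls was −1.47 to −0.07 over the 5 tissues, in the members' direction in each, and that of KLF1, an erythroid transcription factor, −1.05 to 0.46. In BPA exposed fetuses ALAS2 was 0.03 to 1.65 higher in LG than in EG, and KLF1 differed by −0.31 to 0.88. CFD, the 1 adipocyte marker of 5 that was described, moved against the members: it was 1.63 to 4.15 higher in LG than in EG controls over the 5 tissues and 2.71 to 3.67 higher in BPA exposed fetuses. In LV CFD was 3.45 to 4.62 in EG fetuses and 6.22 to 10.27 in LG fetuses. Of 4 smooth muscle markers MYH11 was described, and it was 0.08 to 1.74 higher in LG than in EG controls and 0.25 to 3.13 higher in BPA exposed fetuses. Of 6 cartilage markers CNMD was described and was no member. Of 12 immune markers, CTSS was 0.16 to 1.61 higher and LCP2 between −0.66 and 0.86 in LG controls. The part of these cell types in the members' fall was not tested.

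The tissue labels could be checked with the cardiomyocyte gene MYH6, the myosin of atrial muscle, which was the 1 described gene of 12 on that list. It lay between 14.30 and 14.96 on all atrial arrays and between 6.28 and 10.60 on BFM arrays. In LV it was 5.69 to 7.16 in EG fetuses, 14.16 to 14.43 in LG controls and 7.62, 13.45 and 5.56 in LG BPA exposed fetuses, so LG arrays of LV differed among themselves in this marker. In RV it ranged from 5.51 to 14.23 with high and low arrays in both windows. The part of this variation in the members' LV values was not tested.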

How the data were processed

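The authors deposited 1 table of log2 values for 26149 transcripts on 60 NimbleGen arrays, made by robust multi-array averaging within each tissue (background correction, quantile normalization, median polish). Except for MYH6 as a check of the tissue labels, levels were therefore compared only within a tissue. Differences between windows were set side by side between tissues. Ventricular cDNA was labelled unamplified and atrial cDNA after PCR amplification, with 1 slide for each chamber. The preparation of BFM is not given in the sources used here. Precision is limited by the number of arrays, and scanner intensities were not used.

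Members followed the rule in the report. The members, lists and tests were chosen with earlier results of these data known. Names came from the study's printed descriptions, each accepted where its printed difference matched the table within 0.001 (606 entries, 579 transcripts). The rule for named transcripts took every member with a protein name, the 2 members with the largest mean fall by identifier, values at the threshold, and members whose fall differed between groups.

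Group means were fitted on all 12 arrays of a tissue and all transcripts in R 4.3.3 by the linear models and moderated statistics of limma 3.58.1 (default settings), with Benjamini-Hochberg adjustment over 26149 transcripts. All tests were two-sided. The fall in BFM was set against the heart on the 30 arrays of BPA exposed fetuses, with arrays of the same fetus entered separately. The variation filter of the methods (an interquartile range of 0.5) was left out, as it spans both windows, and was an alternative, beside a filter on dim transcripts, further normalization, trend and robust settings, a floor in LV, stricter membership, fewer arrays and each fetus left out. Fits were tested on simulated data. Python 3.11.15, pandas 2.3.3, numpy 2.4.6 and matplotlib 3.10.9 handled tables and figures. Equal numbers in the sample titles were taken to mark the same animal across tissues, which the sources do not state. Deviations from group means under the same number correlated only weakly between tissues, with a median of 0.0906 (54 of 120 pairs over 0.1). The list of neural markers is not reported here.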

Additional observations from a re-analysis of the deposited data

Results flagged for a closer look

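The fall differed between skeletal muscle and heart for 29 members in BPA exposed fetuses by a test of the difference itself (adjusted p of at most 0.05, limma), which is 10.1% of the members against 4.05% of all transcripts. The 8 that fell further in the heart (2.78%, against 2.21%) were a share near that of all transcripts. The rule lets a member miss in 1 tissue, so these shares can come with the choice. Tissue and preparation cannot be told apart here. CENPE was 1 of these 8, with a fall in BFM minus that in the heart of 1.31 (SE 0.28, adjusted p = 0.00589). With LV left out of the heart mean, chosen after seeing the data, it was 0.84 (SE 0.24, adjusted p = 0.0477, limma). In LV the fall differed by at least 1 between BPA exposed fetuses and controls for 4 members, at an unadjusted p of 0.01 (limma). In either direction this is 1.39% of the members, near the 1.06% of all transcripts. At an adjusted p of 0.05 (limma) the count was 0. All 4 had the larger fall after BPA (1.39%, against 0.382% of all transcripts in that direction), and 0 had the smaller fall (0.673% of all transcripts). With the unadjusted p raised to 0.05 and no limit on size, 21 members had the larger fall (7.29%, against 2.05% of all transcripts) and 4 the smaller (1.39%, against 3.2%). For CENPE this difference was −2.09 (SE 0.47, adjusted p = 0.835, limma). The study had described CENPE for LV LG, so neither value of CENPE is independent evidence. With 3 fetuses in each group, no test for a single sample that stands apart was made.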

How the results depend on the processing

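The rule gave 96 members at a fall of 1.5, 139 when all 4 tissues had to fall, and 246 to 344 with a control fetus left out. Shares of members called, at the methods' criteria unless stated, moved as follows, without the shares over all transcripts in these runs. For the fall in LV controls (32.3%) the share was 0% at an adjusted p of 0.05, 50.4% among members that fell in all 4 tissues, 19.4% with only the arrays compared, and 20.5 to 36.1% with a fetus left out. For the fall in BPA exposed fetuses, the adjusted p of 0.05 gave 16.7% in LV, 37.2% in RV, 20.1% in LA and 29.2% in RA. For BPA against control in LV EG it was 0.347% with only the arrays compared and 0 to 0.347% with a fetus left out. In LV LG it was 1.39% with the interquartile range filter, 0% at the adjusted p, 4.32% among members that fell in all 4 tissues, 1.74% with only the arrays compared and 1.74 to 11.1% with a fetus left out. For the difference of the 2 falls in LV it was 0% at the adjusted p and 0.694 to 4.51% with a fetus left out. For BFM against heart it was 12.2% with the interquartile range filter, 10.1% at the adjusted p, 11.5% among members that fell in all 4 tissues and 11.5 to 19.8% with a fetus left out. With the fetus as a replicate block in this last comparison it was 18.8%, and the block changed no call of a named member. Without LV in the heart mean, chosen after seeing the data, it was 17.7%, and CENPE lost its call at 0.84. With a fetus left out, the shares in BPA exposed fetuses ranged over 70.8 to 78.8% in BFM, 37.5 to 43.8% (LV), 51 to 59.4% (RV), 40.3 to 51% (LA), 47.6 to 54.2% (RA) and 67.4 to 74.7% for the mean of 5 tissues. Direction was checked for the named members only, and none of their called values changed direction under any alternative run. Of 858 values of single named members 24 gained and 31 lost a call. The cause of these shifts was not tested. Precision is limited by 3 fetuses in each group, and p-values cover the spread between these fetuses only.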
